A study of Mus musculus with 8 samples.

Results

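Amino acid transporters of the plasma membrane were followed in newborn mouse epidermis in which a mutant mitochondrial helicase was expressed. The set holds 10 genes chosen by name, because the cationic transporter Slc7a3 stood far higher in the mutant arrays. Of these, 9 were measured on a probe set naming 1 gene only, out of 22180 genes measured in all. The glycine carrier Slc6a9 shares its only probe set with Ccdc24, so no value is given for it. Total RNA of the epidermis at postnatal day 0 was hybridised to 8 arrays, all of strain C57BL/6J. In the 4 K320E arrays (genotype label K320E-TwinkleEpi), K320E-Twinkle expression was directed to the epidermis by way of the K14 promoter, which is active in basal keratinocytes. The 4 control arrays carry the genotype label R26-K320E-TwinkleloxP/+, so the control label names the K320E-Twinkle allele as well. Nothing in the labels says that the arrays come from separate animals, and the errors below measure the spread between these arrays, which may in part be technical.

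Cells take up amino acids through carriers that differ in substrate and in driving force. Slc7a1, Slc7a2 and Slc7a3 encode cationic amino acid transporters for arginine, lysine and ornithine. Slc7a5 encodes LAT1, an exchanger for leucine and other large neutral amino acids, which reaches the cell surface only when bound to the heavy chain encoded by Slc3a2. Slc38a1 and Slc38a2 import glutamine, alanine and other small neutral amino acids together with sodium, and Slc1a4 and Slc1a5 exchange alanine, serine, cysteine and, for Slc1a5, glutamine. Slc6a9 encodes the glycine transporter GlyT1. Several of these genes are known targets of ATF4, the transcription factor of the integrated stress response, which binds the C/EBP-ATF response element.

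Promoter windows (250 bases before to 50 after the annotated start, RefSeq, GRCm38.p6) were searched for that element. The core searched was TGATGNAA on both strands, with TGATGCAA as 1 of its forms (every TGATGCAA is also a TGATGNAA). Of the 10 members, 5 were in the promoter table, with 8 windows: Slc7a1, Slc3a2, Slc38a2, Slc1a4 and the unmeasured Slc6a9. TGATGNAA was found in 1 of these 8 windows, that of Slc1a4, while 3.97% of all 32851 windows held it and 0.895% held TGATGCAA. TGACGTCA, the cAMP response element, was in 0 of the 8 windows and in 1.79% of all. Slc7a11, the cystine transporter whose values follow below, held 2 matches. The windows of Slc1a4 and Slc7a11 are printed because they hold the element, and those of Slc7a1 (the first of its 2) and Slc3a2 because the transcripts were higher in K320E and the window holds no match. Capitals mark each match to TGATGNAA on either strand.
Slc1a4, chr11:20332664-20332963, minus strand: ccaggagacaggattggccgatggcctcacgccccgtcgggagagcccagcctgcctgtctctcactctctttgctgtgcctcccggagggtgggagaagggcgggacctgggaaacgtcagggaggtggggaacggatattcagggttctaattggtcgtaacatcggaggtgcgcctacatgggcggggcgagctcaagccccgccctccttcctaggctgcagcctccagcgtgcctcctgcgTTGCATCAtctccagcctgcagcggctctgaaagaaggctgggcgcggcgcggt
Slc7a11, chr3:50443564-50443863, minus strand: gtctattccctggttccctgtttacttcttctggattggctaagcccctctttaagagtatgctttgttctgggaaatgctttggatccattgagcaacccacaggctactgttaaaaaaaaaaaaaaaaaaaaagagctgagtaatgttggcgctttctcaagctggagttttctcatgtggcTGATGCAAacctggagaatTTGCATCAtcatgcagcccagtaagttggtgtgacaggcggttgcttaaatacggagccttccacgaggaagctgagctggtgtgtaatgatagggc
Slc7a1, chr5:148399855-148400154, minus strand: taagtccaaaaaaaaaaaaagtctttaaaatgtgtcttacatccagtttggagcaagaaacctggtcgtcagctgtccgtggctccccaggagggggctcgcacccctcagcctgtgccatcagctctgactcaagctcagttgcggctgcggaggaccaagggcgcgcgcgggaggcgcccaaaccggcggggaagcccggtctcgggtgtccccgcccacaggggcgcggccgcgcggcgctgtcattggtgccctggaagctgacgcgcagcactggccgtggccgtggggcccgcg
Slc3a2, chr19:8713848-8714147, minus strand: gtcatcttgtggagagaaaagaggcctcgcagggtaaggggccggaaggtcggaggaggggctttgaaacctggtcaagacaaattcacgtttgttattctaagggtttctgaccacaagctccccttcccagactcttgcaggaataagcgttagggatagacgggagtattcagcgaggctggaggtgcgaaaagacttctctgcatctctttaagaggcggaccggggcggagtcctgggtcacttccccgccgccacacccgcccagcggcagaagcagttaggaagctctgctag
The match in Slc1a4 spans the annotated start, with its first base at -4 (chr11:20332710-20332717). Those in Slc7a11 begin at -66 and -47. The window of Slc3a2 lies inside the annotated span of the gene (chr19:8706882-8723369), so the upstream end of that span was not searched. A match is a description of letters in this window. A window without one says nothing of other parts of the gene, and nothing about binding.

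Twnk, which encodes Twinkle, separated the arrays as labelled. It measured 8.91 to 9.28 on the K320E arrays and 6.55 to 6.95 on the controls. It rose in K320E by 2.31 on the log2 scale (SE 0.11, limma adjusted p = 0.00011). Markers of suprabasal keratinocytes were high on all arrays, with a mean log2 level between 12.37 and 12.51. Sex is not labelled: Xist was high with a Y-linked mean near the lowest values on 5 arrays, and the reverse held on K320E replicate 3. Control replicate 2 had a high Y-linked mean (9.05) with an intermediate Xist level (9.27, against 12.07 to 12.27 on those 5 arrays). Control replicate 3 was low for both Xist and the Y-linked mean (6.17 and 4.75). Results are therefore also given without control replicates 2 and 3.

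The 9 measured transporters were, with 1 exception, higher in K320E than in controls. Their log2 differences (K320E minus control) ran from -0.20 to 1.90 with a median of 0.66, against a median of -0.00052 over all 22180 genes. In 7 of the 9 every K320E array lay above every control array, which was so for 5.5% of all genes. The opposite arrangement was seen in 0 of the 9 and in 3.75% of all genes. In limma's fit across all genes 4 of the 9 passed an adjusted p of 0.05, all higher in K320E (Slc7a3, Slc7a1, Slc7a5 and Slc3a2), beside 0.879% of all genes in either direction and 0.685% upward. The set was put together with this contrast in view, so these counts describe it and nothing is read from them.

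**Figure D1:**
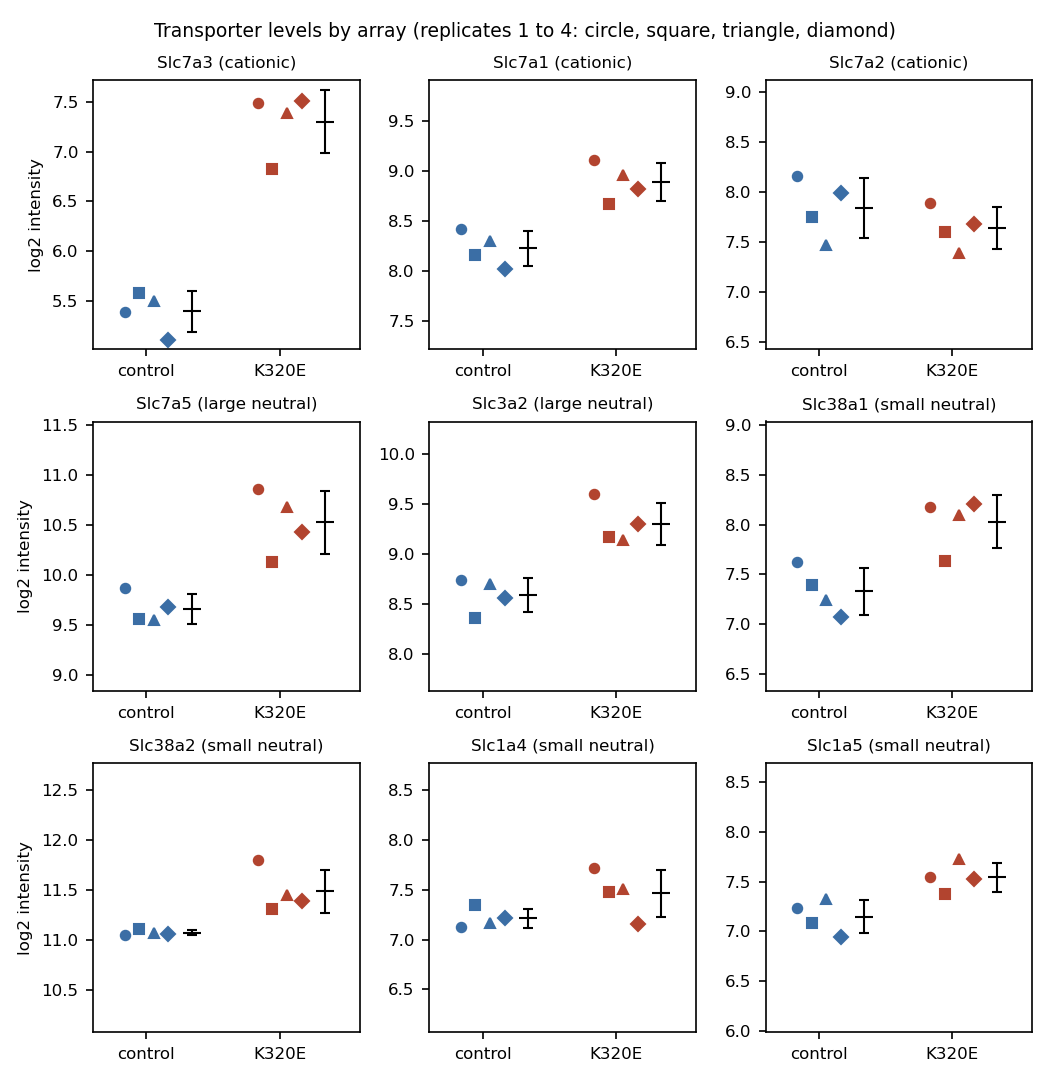
Log2 intensity (vertical axis, the same span in every panel) of the 9 measured transporters on each control (blue) and K320E (red) array, with marker shapes for replicates 1 to 4 and the mean ± SD in black. The groups are apart in 7 panels and overlap for Slc7a2 and Slc1a4.

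Among the cationic transporters, Slc7a3 differed most. It measured 7.49, 6.83, 7.38 and 7.50 in K320E replicates 1 to 4, and 5.39, 5.59, 5.50 and 5.11 in control replicates 1 to 4. The lowest K320E array stood 1.24 above the highest control, more than the range of either group (0.68 and 0.47). The means were 7.30 ± 0.32 and 5.40 ± 0.21 (SD, n = 4 each), a log2 difference of 1.90 (SE 0.16) or 3.74-fold, the 12th highest of the 22180 genes. The control values lie towards the low end of the scale, whose lowest value was 4.31. The files give no detection call, so how far they lie above background is unknown. Slc7a3 is X-linked. K320E replicate 3, the K320E array with low Xist, measured 7.38, inside the range of the other K320E arrays.

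Slc7a1, the broadly expressed cationic transporter, was higher by a smaller amount. It measured 9.11, 8.67, 8.97 and 8.82 in K320E replicates 1 to 4 and 8.43, 8.17, 8.30 and 8.02 in the controls. The groups did not overlap, with a gap of 0.24 between them. The log2 difference was 0.66 (SE 0.11), or 1.58-fold.

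Slc7a2, whose protein exists in a high- and a low-affinity form, had a lower mean in K320E, which was turned to a higher one (0.10) with the hair follicle mean as a covariate. Its K320E values were 7.89, 7.60, 7.39 and 7.68, and its control values 8.16, 7.74, 7.47 and 7.99. The groups overlapped over most of their range. The difference was -0.20 (SE 0.15), with 95% limits of -0.55 and 0.15. It was -0.097 without control replicate 1, -0.12 without K320E replicate 3, -0.33 without control replicate 3 and -0.44 without control replicates 2 and 3. Replicate 3 was the lowest array in both groups.

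The unequal change within the cationic class can be put as ratios within each array. These restate the values above and add no further evidence, and Slc7a3 was the gene for which the set was chosen. How often the ratios of other gene pairs stand apart was not counted. Relative to the control mean, the log2 ratio of Slc7a1 to Slc7a2 was 0.83, 0.68, 1.19 and 0.76 in the K320E arrays and -0.12, 0.03, 0.44 and -0.36 in the controls, a mean difference of 0.87 without overlap. The ratio of Slc7a3 to Slc7a1 was higher by 1.24 in K320E (SD 0.21 in K320E and 0.19 in controls, n = 4 each), also without overlap. Both are ratios within an array and do not depend on a shift common to all genes of an array. A normalization that varies with intensity can still change them.

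The light and heavy chain of LAT1 were higher together. Slc7a5 measured 10.86, 10.13, 10.68 and 10.43 in K320E and 9.87, 9.56, 9.54 and 9.67 in controls. Its means were 10.53 ± 0.32 and 9.66 ± 0.15 (SD, n = 4 each), a log2 difference of 0.86 (SE 0.15) or 1.82-fold. The groups were apart by 0.27, and the K320E arrays spread more widely than the controls.

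Slc3a2 measured 9.60, 9.17, 9.14 and 9.30 in K320E and 8.74, 8.36, 8.70 and 8.55 in controls. The groups were apart by 0.40. The log2 difference was 0.71 (SE 0.12), or 1.64-fold. The log2 ratio of Slc7a5 to Slc3a2 within each array differed by 0.15 between the groups (SD 0.24 in K320E and 0.16 in controls, n = 4 each), and the groups overlapped.

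**Figure D2:**
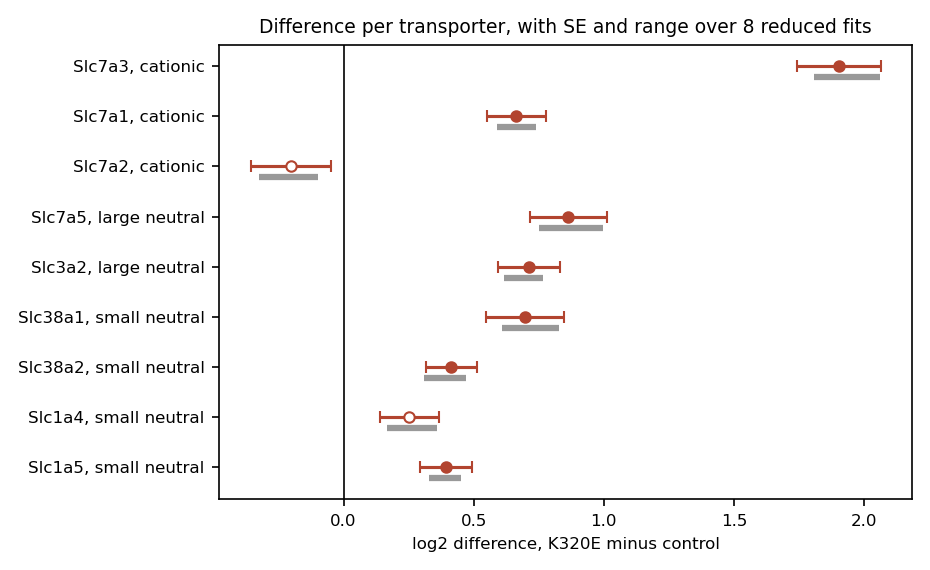
Log2 difference, K320E minus control (horizontal axis), of each measured transporter with its SE (red), the grey bar below giving the range when each of the 8 arrays was left out. Filled points mark the 7 transporters whose groups do not overlap; Slc7a3 lies at 1.90, and Slc7a2 at -0.20 is the 1 point below 0.

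The sodium-coupled importers of small neutral amino acids were higher in K320E as well, by 0.41 to 0.70. Slc38a1 measured 8.18, 7.64, 8.10 and 8.21 in K320E and 7.62, 7.40, 7.24 and 7.07 in controls. The groups were apart by only 0.012, between K320E replicate 2 and control replicate 1. The log2 difference was 0.70 (SE 0.15).

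Slc38a2, which cells are known to raise when amino acids are short, measured 11.80, 11.31, 11.44 and 11.39 in K320E and 11.05, 11.11, 11.07 and 11.06 in controls. Its controls spanned 0.057 and its K320E arrays 0.49, with K320E replicate 1 highest. The log2 difference was 0.41 (SE 0.10), and without K320E replicate 1 it was 0.31. The ratio of Slc38a1 to Slc38a2 within each array differed by 0.28 between the groups, which overlapped.

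The 2 exchangers of the Slc1 family differed by 0.25 and 0.39, the latter close to Slc38a2. Slc1a5 measured 7.55, 7.38, 7.73 and 7.52 in K320E and 7.24, 7.09, 7.32 and 6.95 in controls, a log2 difference of 0.39 (SE 0.10) with a gap of 0.058 between the groups. Slc1a5 is the 1 member with a second probe set naming it alone, which gave 0.54 (SE 0.15). There too every K320E array (6.56 to 7.33) was above every control array (6.22 to 6.50).

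Slc1a4 measured 7.72, 7.48, 7.51 and 7.15 in K320E and 7.12, 7.34, 7.17 and 7.22 in controls. K320E replicate 4 lay within the controls, so the groups overlapped. The log2 difference was 0.25 (SE 0.11), with 95% limits of -0.00024 and 0.51, and 0.17 without K320E replicate 1. The ratio of Slc1a5 to Slc1a4 differed by 0.14 between the groups (SD 0.26 in K320E and 0.23 in controls, n = 4 each), with overlap.

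By class, the log2 difference ran from -0.20 to 1.90 in the 3 cationic transporters, from 0.71 to 0.86 in LAT1 and its heavy chain, and from 0.25 to 0.70 in the 4 sodium-coupled small neutral carriers. No difference between classes was tested. The glycine class had no measured member. Slc6a5, the glycine transporter known from neurons, was named because Slc6a9 was not measured, after its value was seen, and had a log2 difference of -0.028 (SE 0.081, limma adjusted p = 0.92).

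The size of the difference varied between the K320E arrays. Relative to each gene's control mean, the median of the 9 transporters was 0.84 in K320E replicate 1, 0.30 in replicate 2, 0.58 in replicate 3 and 0.60 in replicate 4. In the controls it ran from -0.062 to 0.15. K320E replicate 1 was the highest K320E array for 6 of the 9 and replicate 2 the lowest for 6 of the 9. The Twnk level was 9.28, 9.09, 8.91 and 8.91 in K320E replicates 1 to 4. It too was highest in replicate 1, but it was not lowest in replicate 2. A relation between the 2 was not tested. Among the controls, replicate 1 was highest for 5 of the 9 and replicate 4 lowest for 4, Slc7a3 and Slc7a1 among them.

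**Figure D3:**
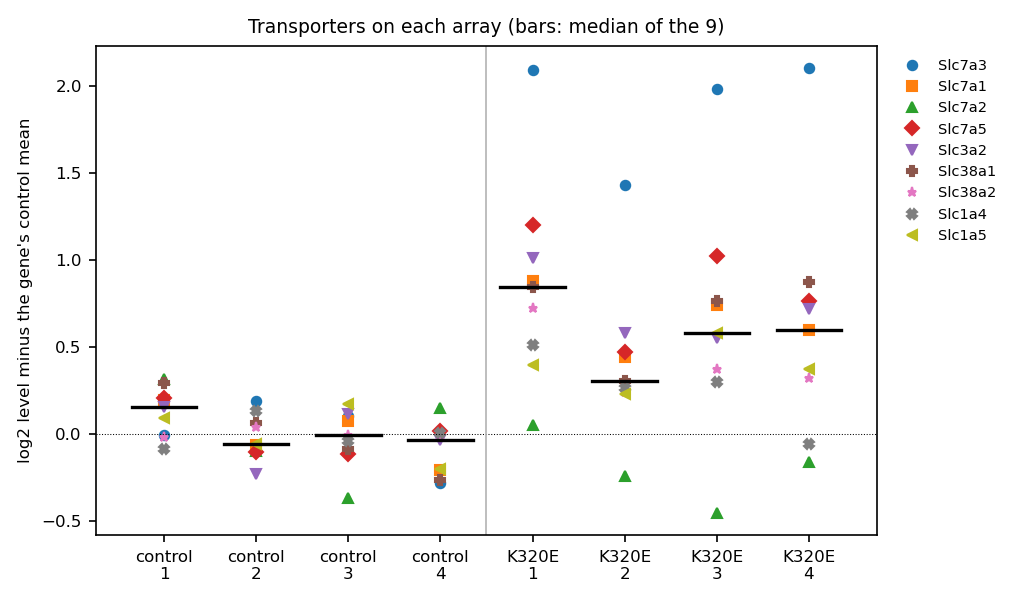
Log2 level of each of the 9 transporters minus its control mean (vertical axis) on each array, with the median of the 9 as a black bar. The medians are 0.30 to 0.84 in K320E and -0.062 to 0.15 in controls, and K320E replicate 2 is the lowest K320E array.

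In fits that each left out 1 array, the count of transporters past the threshold fell from 4 to 1 without K320E replicate 3 or 4 or without any control replicate, fell to 2 without K320E replicate 1, and was 5 without K320E replicate 2, when Slc38a1 passed. Slc7a3 passed in all 8 of these fits, with a log2 difference of 1.81 to 2.06. The set was chosen because Slc7a3 was high on these same arrays, so nothing is read from that count. Slc7a1 and Slc7a5 each passed in 1 of the 8 and Slc3a2 in 2, while their differences stayed between 0.59 and 0.74, between 0.75 and 1.00 and between 0.62 and 0.77. Without control replicates 2 and 3 together, 1 transporter passed, Slc7a3 at 2.05, and Slc7a1 stood at 0.67, Slc7a5 at 0.75 and Slc3a2 at 0.65. With the mean of the Y-linked genes as a covariate 2 passed, Slc7a3 and Slc3a2.

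Means of several cell type marker lists differed between the groups alongside these transporters. In bulk epidermis a change in the number of cells of a type cannot be told apart from a change in RNA per cell. Basal keratinocyte markers (5 of 6 measured) had array means of 10.27 to 10.52 in K320E and 9.99 to 10.19 in controls, without overlap. Of these 5, 4 had higher K320E means and 0 were called. Hair follicle structure genes (18 of 19 measured, 17 of them lower in K320E) had means of 7.11 to 7.49 in K320E and 7.49 to 8.76 in controls, control replicate 4 being highest. Sebocyte markers (7 of 8 measured) were at 6.81 to 6.96 against 7.17 to 7.92, and Langerhans and dendritic cell markers (5 of 6 measured) at 6.65 to 6.76 against 7.06 to 7.21. All 7 and all 5 had lower K320E means, and 1 and 2 of them were called lower. Neutrophil markers (8 of 8 measured) were at 5.62 to 5.69 against 5.30 to 5.59, low on the scale. Of these 8, 6 had higher K320E means, 0 were called and 1 had a level above the median of all genes. With the hair follicle mean as a covariate, the log2 differences were 1.73 for Slc7a3, 0.61 for Slc7a1, 0.98 for Slc7a5 and 0.83 for Slc3a2, and 0 of the 9 passed, while 2 of all genes did. That mean nearly separates the genotypes, so this fit cannot tell its part from that of genotype. The SE grew from 0.15 to 0.21 for Slc7a5 and from 0.12 to 0.16 for Slc3a2. T cell markers (4 of 5 measured, 3 of them lower in K320E and 1 called higher) were at 6.29 to 6.87 against 6.74 to 7.12. Skeletal muscle markers (9 of 9 measured, all with higher K320E means, 0 called) were at 6.81 to 7.92 against 6.34 to 7.13. Melanocyte markers (6 of 6 measured, all with lower K320E means, 0 called) were at 8.30 to 8.72 against 8.61 to 9.08. The suprabasal, granular, fibroblast, adipocyte, endothelial, macrophage, mast cell and erythroid lists overlapped as well. K320E replicate 3 was the highest array for adipocyte markers, at 7.54 against 6.36 to 6.68 on the rest. It was also highest for fibroblast (8.07), endothelial (6.06), mast cell (6.60) and muscle markers (7.92). Without that array 53 of all genes were called, beside 195 with all arrays. The part of any of these marker shifts in the transporter values, that of the hair follicle genes included, was not tested.

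Most other carriers of amino acids at the plasma membrane did not pass. A list of 36 further transporters, written with earlier results known, was measured completely and had a median log2 difference of -0.025. The median level of its genes was 6.06, against 6.36 over all genes and 7.74 for the set. Many of them thus lie low on the scale, where a change may not show in full. In this list 1 gene rose and 0 fell in limma's fit across all genes, or 2.78% called, beside 0.879% of all genes. The K320E arrays were all above the controls in 3 genes and all below in 3, beside 5.5% and 3.75% of all genes. The riser was Slc7a11, the light chain of the cystine and glutamate exchanger, which also pairs with the Slc3a2 heavy chain. It measured 9.79, 9.74, 9.69 and 9.67 in K320E and 8.51, 8.32, 8.94 and 7.98 in controls, a log2 difference of 1.29 (SE 0.17, limma adjusted p = 0.013). Its K320E arrays lay within a narrow band, above all controls. Without K320E replicate 3 the difference was 1.30 and missed the threshold (limma adjusted p = 0.051). The count was 0 without that array, and 3 without control replicate 3 (2 higher and 1 lower). With the hair follicle mean as a covariate Slc7a11 differed by 1.00 and did not pass (limma adjusted p = 0.19).

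The most highly expressed others of this list did not pass. Slc6a14, a concentrative carrier of neutral and cationic amino acids, had a K320E mean of 10.11 (SD 0.10, n = 4) and a control mean of 9.70 (SD 0.29, n = 4). The log2 difference was 0.41 (SE 0.13, limma adjusted p = 0.20). Its groups did not overlap. With the hair follicle mean as a covariate the difference was 0.054, and without control replicates 2 and 3 it was 0.64 and passed (limma adjusted p = 0.043). Slc38a4, a further system A importer, had a difference of 0.063 (SE 0.096), and the taurine transporter Slc6a6 one of 0.21 (SE 0.28), with controls ranging from 9.54 to 10.88. With 1 array left out Slc6a6 ran from 0.022 (without control replicate 1) to 0.47 (without control replicate 3), and Slc38a4 took both signs.

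Carriers of the same substrates at inner membranes were compared in the same fit. Of 11 carriers mainly of lysosomes, 0 passed, with a median of 0.029. In limma 2 of the 11 had an unadjusted p under 0.05, beside 3288 of all 22180 genes. The most highly expressed, Slc36a4, had a difference of -0.21 (SE 0.13), which was -0.34 without control replicate 1, -0.12 without control replicate 4 and -0.10 with its probe sets averaged. Of 12 mitochondrial carriers, 0 passed (2 at an unadjusted p under 0.05 in limma), with a median of 0.059. The mitochondrial serine transporter Sfxn1 measured 8.93, 8.66, 8.94 and 8.63 in K320E and 8.09, 8.40, 8.40 and 8.21 in controls. Its groups did not overlap, and its difference was 0.51 (SE 0.10, limma adjusted p = 0.062).

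Among the remaining 294 solute carrier genes 2 rose, or 0.68%, and 0 fell, with a median of 0.0093. Slc43a3, a purine nucleobase transporter, rose by 0.90 (SE 0.16, limma adjusted p = 0.041), and the phosphate transporter Slc20a1 by 0.78 (SE 0.11, limma adjusted p = 0.014). Slc43a3 passed in 1 of the 8 fits with an array left out, the one without K320E replicate 2. Slc20a1 passed in 6, and missed without K320E replicate 3 (0.058) or control replicate 2 (0.052). Both missed with the hair follicle covariate (0.28 and 0.15) and without control replicates 2 and 3 (0.12 and 0.082), and Slc43a3 also with the Y-linked covariate (0.059).

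**Figure D4:**
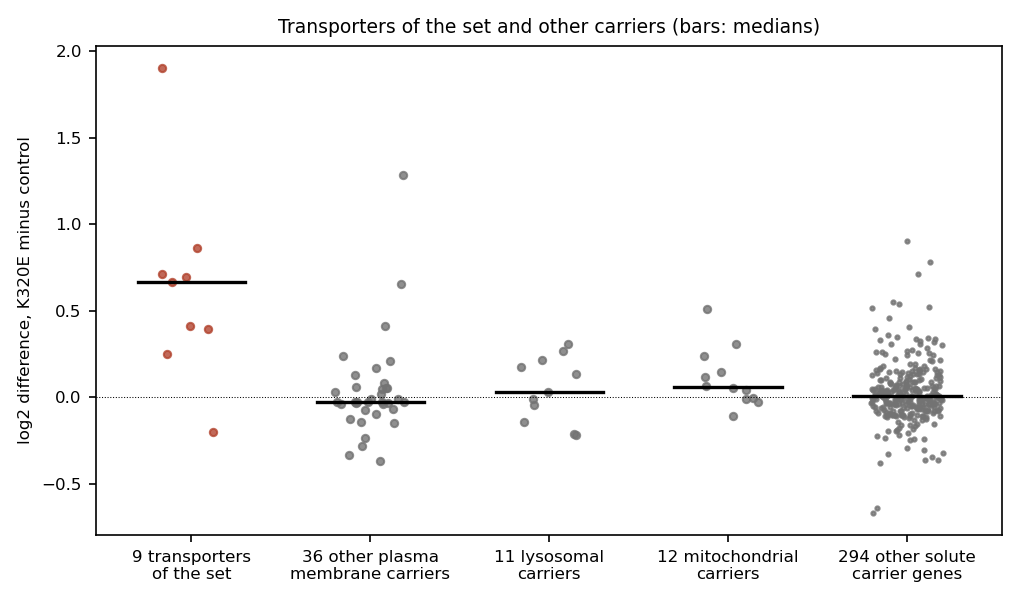
Log2 difference, K320E minus control (vertical axis), of every measured gene in the transporter set and in 4 groups of other carriers, with medians as black bars. The medians are 0.66 for the set and between -0.025 and 0.059 for the other groups, and Slc7a11 at 1.29 is the highest point outside the set.

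Genes with array profiles most like that of Slc7a3 were found by the root mean square difference over the 8 arrays, each gene being taken relative to its control mean. The closest were the glutathione transferase Gsta4 (0.21), the annexin Anxa3 (0.22) and the late cornified envelope genes Lce3e (0.23), Lce3d (0.27) and Lce3f (0.30). All 5 had higher means in K320E, by 1.71 to 2.22. For the median profile of the 9 transporters the closest genes were Anln, an actin-binding protein of dividing cells (0.091), the cysteinyl-tRNA synthetase gene Cars (0.096), the nuclear receptor Nr4a1 (0.098), the phosphatase Dusp5 (0.10) and the serotonin receptor Htr1b (0.11). These are descriptions over 8 arrays that fall into the same groups.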

How the data were processed

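The 8 arrays were grouped by the genotype in their labels. The deposited values, 1 for each of 33793 probe sets per array, are log2 intensities. How the authors corrected background, summarised probes and normalized arrays is not given in the sources used here. Array medians lay between 6.06 and 6.11. Probe sets were named through GEO's platform annotation: 23521 had 1 symbol, 1814 several and 8458 none. A gene was read from the probe set naming it alone with the highest mean over all arrays, which left 22180 genes. Differences between genotypes come from lmFit and eBayes (limma 3.58.1, R 4.3.3), fitted on all 8 arrays with genotype alone, with Benjamini-Hochberg adjustment over all genes and a threshold of 0.05. SEs are moderated. The fit was tested on simulated data.

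The members and lists were chosen with earlier results of these data known. The text names the members, Twnk, all called genes of each carrier list, the most highly expressed others (3 of the plasma membrane list, 1 each of the lysosomal and mitochondrial lists), the 3 highest and 3 lowest called genes among other solute carriers (2 higher and 0 lower were called), the 5 genes closest to each of 2 profiles, and Atf4 with the called genes of the ATF4 and arginine lists. Protein sequences were not used here. Alternatives were quantile normalization, centring on medians, averaging a gene's probe sets, testing every probe set, leaving out the lowest 33.3% of genes, a trend with a robust prior, array weights, the replicate number as a block, covariates for Y-linked and hair follicle levels, a minimum fold of 1.2, and leaving out arrays.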

Additional observations from a re-analysis of the deposited data

Results flagged for a closer look

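In control replicate 4 Slc38a4 measured 11.12, set apart from the other controls at 11.34 to 11.37. In control replicate 3 Eif4ebp1, which encodes the translation repressor 4E-BP1, measured 8.30, while the other controls lay between 7.89 and 7.95. These were the 2 of 54 groups of 4 arrays (27 genes in both genotypes) in which 1 array stood apart by Dixon's criterion, and chance alone gives about 1 in 20. None of the 9 transporters of the set had such an array in either group.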

How the results depend on the processing

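The log2 differences of 8 of the 9 transporters kept their sign under all 20 alternatives. That of Slc7a2 turned to 0.10 with the hair follicle mean as a covariate, and that of Slc38a4 to -0.054 with that covariate and to -0.011 without K320E replicate 1 (range with 1 array left out -0.011 to 0.13); the cause was not tested. Over the fits with 1 array left out, calls ran from 53 to 173 for all genes (195 with all arrays), 1 to 5 for the set, 0 to 3 for the other plasma membrane carriers and 0 to 2 for the other solute carriers, and stayed at 0 for the lysosomal and mitochondrial lists. With the hair follicle covariate there were 2 calls over all genes and 0 in the set, the other plasma membrane carriers and the other solute carriers. With the Y-linked covariate 2 of the set passed. Without control replicates 2 and 3 the calls were 1 in the set and 3 among other plasma membrane carriers, all higher in K320E. Among other solute carriers 1 gene was called, lower in K320E. A minimum fold of 1.2 left 33 calls over all genes, 1 in the set and 0 in both of those lists. Leaving out the lowest 33.3% of genes, which means fewer genes tested, gave 288 calls over all genes. It brought the set to 5 calls, with Slc38a1 passing (limma adjusted p = 0.041), and added 1 call, Sfxn1, in the mitochondrial list.

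Whether the replicate numbers pair the arrays could not be settled with 4 arrays a group. Deviations of same-numbered arrays from their group means correlated at -0.06 to 0.14, and 2 of the 4 K320E arrays matched their own number best. With the replicate number as a block 114 genes were called, and 4 of the set. Precision is limited by having 4 arrays a group, and signal over background is unknown.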

Other observations

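Genes that use the substrates of the cationic transporters were measured in the same fit. Of 16 measured genes of arginine and ornithine metabolism, 2 rose and 1 fell in limma's fit across all genes, with a median log2 difference of 0.0096. Over all genes 0.685% rose and 0.879% were called in either direction. Odc1, ornithine decarboxylase of polyamine synthesis, rose by 0.71 (SE 0.13, limma adjusted p = 0.048), and Aldh18a1, which starts proline and ornithine synthesis from glutamate, rose by 0.60 (SE 0.079, limma adjusted p = 0.013). Arg2, the mitochondrial arginase, fell by 0.49 (SE 0.073, limma adjusted p = 0.021), while Arg1, named as the other arginase after its value was seen, had a difference of 0.0088 (SE 0.13, limma adjusted p = 0.983). With an array left out, Aldh18a1 passed in all 8 fits, Arg2 in 3 (those without K320E replicate 2 or control replicate 1 or 3) and Odc1 in 2 (those without control replicate 1 or 4). The replicate block ended the calls of Aldh18a1 (limma adjusted p = 0.069), Arg2 (0.053) and Odc1 (0.075). Odc1 also missed with quantile normalization (0.057), the Y-linked covariate (0.069) and without control replicates 2 and 3 (0.132).

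Of 15 measured genes in a short list of ATF4 and its known targets, 5 rose and 0 fell, beside 0.879% of all genes called. All 15 differences were positive, beside 11050 of all 22180 genes, in a list whose direction was already known from these arrays. The secreted glycoprotein gene Stc2 rose by 1.25 (SE 0.15, limma adjusted p = 0.0101) and Asns, asparagine synthetase, by 0.99 (SE 0.0999, limma adjusted p = 0.00437). Eif4ebp1 rose by 1.02 and Vldlr, a lipoprotein receptor, by 0.81, and Ddit3, which encodes CHOP, by 0.38 (limma adjusted p = 0.0497). Without K320E replicate 3 Eif4ebp1 missed the threshold (limma adjusted p = 0.051). Vldlr passed in 3 of the 8 fits, those without K320E replicate 1 or 2 or control replicate 4, and Ddit3 in 1, the one without K320E replicate 2. The replicate block ended the calls of Vldlr (limma adjusted p = 0.071) and Ddit3 (0.13). Without control replicates 2 and 3 both missed as well (0.098 and 0.156). Ddit3 also missed with quantile normalization (0.068), with every probe set tested (0.051), with the trend and robust prior (0.081) and with the Y-linked covariate (0.067). Atf4 itself had a difference of 0.33 (SE 0.092, limma adjusted p = 0.145), with groups that did not overlap. With the hair follicle mean as a covariate none of these 8 called genes passed, at limma adjusted p values from 0.117 (Asns) to 0.368 (Odc1).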
